A study of Mus musculus with 42 samples.

Results

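The DEAD box and DEAH box helicases are a large family of proteins that use ATP to open RNA duplexes or to strip proteins from RNA. The members described here were the genes whose symbol is Ddx or Dhx followed by a number and at most 1 letter. Of the 53 such rows among 55401 genes, 48 were taken, 33 with a Ddx name and 15 with a Dhx name. Ddx39b, Ddx23, Ddx1, Ddx58 and Dhx58 were left out.

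Polyadenylated RNA was sequenced from 7 mouse cancer cell lines after 6 h with 10 µM RECTAS dissolved in 0.1% DMSO, or with DMSO at the same share as the vehicle. RECTAS is a compound that alters splicing by way of CLK kinases. The lines were B16 (melanoma), CT26 (colorectal adenocarcinoma), EG7 (lymphoma), LLC (lung carcinoma), MC38 (colorectal carcinoma), Pan02 (pancreatic adenocarcinoma) and WEHI3 (leukemia), and each of the 14 groups held 3 libraries. EG7 is known as a derivative of the EL4 lymphoma that carries an ovalbumin gene, and every line is a single line, so a difference between lines is not one between tumour types. Nothing in the labels ties the 3 libraries to separate cultures, and p-values then reflect no more than the spread between these samples, which may be technical.

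Splicing depends on these enzymes at nearly every step. DEAD box helicases let the snRNPs settle on the pre-mRNA, and DEAH box helicases, often switched on by partner proteins with a G-patch, drive the catalytic rearrangements and take the spliceosome apart. Other members build the ribosome in the nucleolus, carry mRNA out of the nucleus, start translation or bring about decay. The family is named after motif II of the helicase core, the residues that bind magnesium and ATP.

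The bases that encode motif II show how the members differ. In the coding sequences of GENCODE M21 on GRCm38, 27 members held in-frame codons for DEAD and 9 for DEAH, and 12 held neither run of letters, among them Ddx39, Ddx52, Dhx34, Dhx9 and Dhx36. The codons for DEAD in Dhx29 lay at codon 1118, far from the place of the motif in the other members, so that match is a description of letters alone. The 60 coding bases around the motif are shown for 8 members, with the 4 codons of the motif in capitals. They are 2 members with clear differences between treatments (Ddx46 and Ddx59), a DEAH helicase of the spliceosome (Dhx38), the only Ddx name with DEAH codons (Ddx11) and 2 pairs of near copies.
Ddx46: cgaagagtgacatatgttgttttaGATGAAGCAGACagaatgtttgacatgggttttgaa
Ddx59: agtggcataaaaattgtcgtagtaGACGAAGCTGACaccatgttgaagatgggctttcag
Dhx38: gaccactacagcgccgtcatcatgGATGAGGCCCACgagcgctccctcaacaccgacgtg
Ddx11: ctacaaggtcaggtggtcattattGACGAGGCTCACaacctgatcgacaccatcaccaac
Ddx19a: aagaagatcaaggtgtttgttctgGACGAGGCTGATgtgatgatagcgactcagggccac
Ddx19b: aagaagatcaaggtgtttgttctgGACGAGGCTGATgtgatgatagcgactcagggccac
Ddx3x: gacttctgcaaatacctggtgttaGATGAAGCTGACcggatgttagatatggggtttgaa
Ddx3y: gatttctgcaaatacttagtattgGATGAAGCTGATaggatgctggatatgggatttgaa
These stretches lie at chr13:55660734-55660793 (plus strand) for Ddx46, chr1:136424855-136432341 (plus strand, across an intron) for Ddx59, chr8:109556041-109556100 (minus strand) for Dhx38 and chr17:66138150-66138209 (plus strand) for Ddx11. They lie at chr8:110979062-110979121 for Ddx19a and chr8:111011311-111011370 for Ddx19b, both on the minus strand. They lie at chrX:13288930-13289443 (plus strand) for Ddx3x and chrY:1265925-1266369 (minus strand) for Ddx3y, both across an intron. The stretches of Ddx19a and Ddx19b were identical in 60 of 60 bases, and those of Ddx3x and Ddx3y in 50. Over the whole aligned coding sequence the identity was 93.1% for Ddx19a and Ddx19b, 84.7% for Ddx3x and Ddx3y, 70.1% for Ddx5 and Ddx17 and 68.2% for Ddx21 and Ddx50.

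The values were TPM per gene, a relative abundance with gene length taken into account, so levels may be compared between genes. TPM keeps no read counts, so depth is unknown, and each library had 11001 to 12205 genes at 1 TPM or more. The log2(TPM + 1) values of 2 replicates correlated at 0.990 to 0.995 over genes with a mean of 1 TPM. Melanocyte markers reached 1 TPM in 8 of 8 cases in B16, T lymphoid markers in 7 of 10 in EG7 and myelomonocytic markers in 8 of 9 in WEHI3. By sum the T lymphoid list was higher in WEHI3 (2200 TPM, mostly Thy1) than in EG7 (1544 TPM). The myelomonocytic list held 810 TPM in B16, mostly Cd68. Epithelial markers reached 1 TPM in 6 of 9 cases in Pan02 and 2 of 9 in LLC, but in 0 of 9 in the colorectal lines CT26 and MC38. Mesenchymal markers did so in 9 of 9 in CT26 and in at most 7 of 9 in each other line. Along the main axis of variation between replicates, which took 14.5% of the replicate variance, the DMSO replicate 2 of LLC stood farthest out, at 0.50 against at most 0.29 in size elsewhere. The 48 helicases together made up 0.239% to 0.386% of all transcripts in a library.

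Of the 48 helicases, 43 reached a mean of 1 TPM in each of the 7 lines. The germline helicases Ddx4 (Vasa), Ddx25 and Ddx43, and Ddx60, which interferon induces, stayed under 1 TPM in every line. Ddx43, known as a cancer-testis gene, was listed at 0 in the libraries of 6 lines. In WEHI3 it stood at 0.96, 0.69 and 0.57 TPM with DMSO and at 0.56, 0.86 and 0.66 TPM with RECTAS, so those groups overlapped. Ddx60 reached at most 0.25 TPM, in a DMSO library of B16. Of the 13 interferon-stimulated genes set beside it, between 5 and 9 reached 1 TPM in a line with DMSO, and Bst2 was the highest of them in each line.

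**Figure D1:**
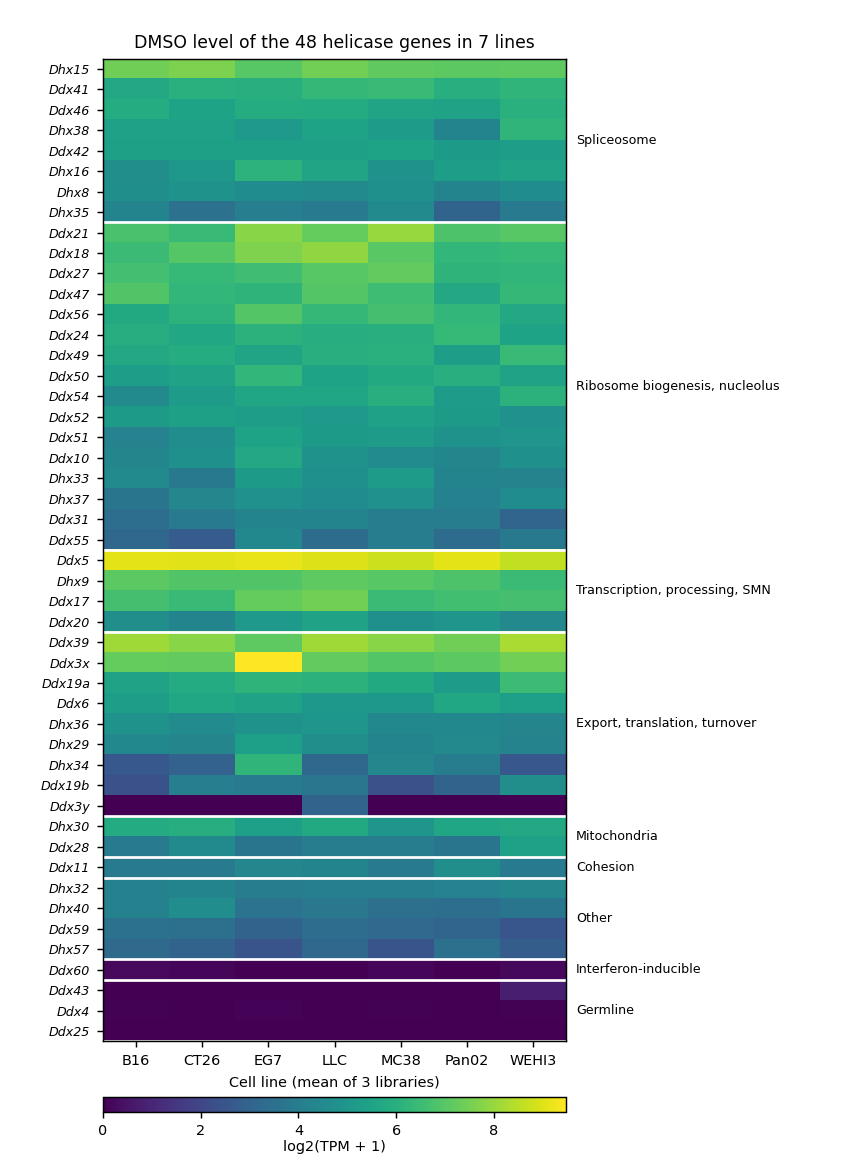
DMSO levels of the 48 helicase genes (rows, grouped by role) in 7 lines (columns), as log2(TPM + 1) of the mean of 3 libraries. Ddx5 is bright in every line, Ddx3x stands out in EG7, Ddx3y is above 0 in LLC alone, and the germline genes are dark.

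In DMSO the helicases differed less between lines than genes in general. A gene was called in a line when its log2(TPM + 1) differed by at least 1 from the mean of the other 6 lines at an adjusted p under 0.05 (limma on the 21 DMSO libraries, Benjamini-Hochberg over 16108 genes). By this rule 11 of 44 members (25%) were called in at least 1 line, against 58.7% of all genes tested. The genes tested needed 1 TPM in only 1 line, while 43 of the members reached it in every line. These shares therefore do not compare genes of like expression. Ddx3y entered through LLC alone and was bound to stand high there. Of the 308 pairs of a member and a line, 10 were higher (3.25%, against 11.7% for all genes) and 6 were lower (1.95%, against 10.8%). With a pseudocount of 0.1 in place of 1, 12 pairs were higher (3.9%, against 16.5%) and 14 lower (4.55%, against 18.9%). Ddx3y (listed at 0 outside LLC), Ddx55 and Dhx35 then joined the lower members. The median range between the highest and lowest line was 1.13 on the log2 scale for the members and 1.62 for all genes. Among genes with a mean log2(TPM + 1) of at least 1 in all lines the gap was smaller, 1.12 for 43 members and 1.28 for 8705 genes. No test was made of these counts and medians.

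Of the 8 spliceosomal helicases, 5 had a range between lines below the members' median of 1.13 and 3 above it. Ddx42, which is associated with the branch-site complex SF3B, had the narrowest range of all members, from 34.5 ± 0.772 TPM in Pan02 to 43.7 ± 1.45 TPM in MC38 (SD, n = 3), and the other lines lay between these. Ddx46, the homologue of yeast Prp5 that helps the branch site pair, ranged from 43.6 TPM in Pan02 to 63.5 TPM in WEHI3. Dhx15, the homologue of yeast Prp43 that takes spliceosomes apart, was the most abundant of the 8, with 155 TPM on average over lines and 195 ± 7.58 TPM in CT26. Dhx35 was the least abundant, with 14.4 TPM on average, and ranged from 7.32 TPM in Pan02 to 21.6 TPM in MC38. Dhx16, the homologue of yeast Prp2, ranged from 24.6 TPM in B16 to 69.4 TPM in EG7. The ranges of these 2 genes were 1.45 and 1.46 on the log2 scale, against 0.33 for Ddx42.

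Dhx38, the homologue of yeast Prp16 that acts before the second catalytic step, had the widest range of the 8 (1.93 on the log2 scale) and was the only one of them called in a line in DMSO. Its DMSO libraries held 76.8, 71.9 and 71.6 TPM in WEHI3 and 21.2, 18.03 and 16.6 TPM in Pan02, while those of the other lines lay between 32.2 and 45.8 TPM. No library of WEHI3 or Pan02 overlapped the others. The difference from the mean of the other 6 lines was 1.07 ± 0.048 (SE) on the log2 scale in WEHI3 (limma, adjusted p = 6.73e-13) and -1.19 ± 0.048 in Pan02 (limma, adjusted p = 2.11e-13).

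The 16 helicases of ribosome biogenesis summed to 1181 ± 5.30 TPM in EG7, 1163 ± 9.60 in MC38 and 1099 ± 17.8 in LLC (SD, n = 3). In the other 4 lines their sum lay between 745 and 794 TPM. The most abundant was Ddx21, a nucleolar helicase of rRNA transcription and processing, with 152 TPM on average, and the least abundant was Ddx55, related to yeast Spb4, with 11.6 TPM. Ddx21 was the highest of them in EG7 and MC38, and Ddx18 in LLC.

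Ddx21 was highest in MC38, with 259 ± 8.58 TPM, and next in EG7, with 222 ± 2.25 TPM. Its difference in MC38 was 1.02 ± 0.032 on the log2 scale (limma, adjusted p = 6.24e-15), just past the threshold of 1, and 0.99 with median-ratio scaling, which ends the call. Ddx18, the homologue of yeast Has1, was highest in LLC, with 236 ± 7.39 TPM against 117 TPM in the others (1.10 ± 0.026). Ddx18 is uncertain, because 62.7% of the 50-base words of its transcript also occur in other genes, most of them in Gm16433. The DMSO line means of Gm16433 lay between 0.573 and 2.19 TPM, and how reads were split was not tested.

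Ddx10, related to yeast Dbp4, was higher in EG7, with 51.7 ± 2.03 TPM against 23.6 TPM in the other lines (1.12 ± 0.068). Ddx55 was higher in EG7 too, with 20.7 ± 0.0703 TPM against 10.0 TPM (1.03 ± 0.039). Ddx54, related to yeast Dbp10, was lower in B16, with 21.4 ± 0.565 TPM against 49.3 TPM (-1.13 ± 0.025). Each of these calls had a limma adjusted p of at most 4.91e-11.

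The widest differences lay among the helicases of export, translation and decay. Dhx34, a factor of nonsense-mediated decay that binds Upf1, held 71.7, 70.8 and 72.7 TPM in the DMSO libraries of EG7. It held 20.5, 19.5 and 20.3 TPM in MC38 and 15.4 ± 0.683 TPM (SD, n = 3) in Pan02, and at most 7.98 TPM in the libraries of the other 4 lines. EG7 therefore stood clear of all other lines, at 7.13 times their mean.

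On the log2 scale the difference of Dhx34 was 2.89 ± 0.039 in EG7 (limma, adjusted p = 1.66e-20), the largest among the members with 1 TPM in all lines. It was lower than the mean of the other 6 lines in B16, with 5.14 ± 0.515 TPM (-1.27 ± 0.039), and in WEHI3, with 4.94 ± 0.200 TPM (-1.32 ± 0.039). The gene lies at chr7:16197147-16222037 on the minus strand and overlaps no other gene of the annotation.

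Ddx3x and Ddx3y are the X-linked and Y-linked copies of a helicase that helps ribosomes start on structured leaders. Ddx3x held 700.6, 729 and 707 TPM in EG7 and between 113 and 178 TPM in the DMSO libraries of the other lines. EG7 was thus 4.88 times the mean of the others, without overlap (log2 difference 2.29 ± 0.062, limma, adjusted p = 3.97e-16). This gene also made EG7 the line with the most helicase transcripts, a sum of 3707 ± 28.0 TPM. Without Ddx3x the sum was 2995 ± 13.2 TPM in EG7 and 3032 ± 139 TPM in LLC.

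Ddx3y was listed at 0 in every library of 6 lines and at 8.86, 4.39 and 7.81 TPM in the DMSO libraries of LLC. With RECTAS the LLC libraries held 5.73, 4.50 and 7.51 TPM, overlapping those with DMSO. In DMSO replicate 2 of LLC, which holds the 4.39, Ddx3x also had its lowest LLC value, 120 TPM against 159 and 160. A value of 0 in a file without counts can be a failed estimate, and no fold is given against it.

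The near copies Ddx19a and Ddx19b, homologues of yeast Dbp5 that release mRNA at the nuclear pore, lie beside each other on chromosome 8. Ddx19a was the more abundant, from 37.1 TPM in Pan02 to 89.2 TPM in WEHI3. Ddx19b held 25.2, 23.6 and 24.5 TPM in WEHI3, but 3.94, 4.10 and 4.38 TPM in B16 and 4.10, 3.97 and 4.23 TPM in MC38. B16 and MC38 overlapped each other and lay below every other line.

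On the log2 scale Ddx19b differed from the mean of the other 6 lines by 1.42 ± 0.045 in WEHI3, -1.27 ± 0.045 in B16 and -1.28 ± 0.045 in MC38 (limma, adjusted p at most 2.44e-14). Of the 50-base words of the Ddx19b transcript, 27.2% occur in Ddx19a as well, and 33.3% of those of Ddx19a occur in Ddx19b, so reads could be split between them. Ddx39 (Ddx39a), an export helicase, was the most abundant of the group with 231 TPM on average. It ran from 138 TPM in EG7 to 305 TPM in WEHI3.

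**Figure D2:**
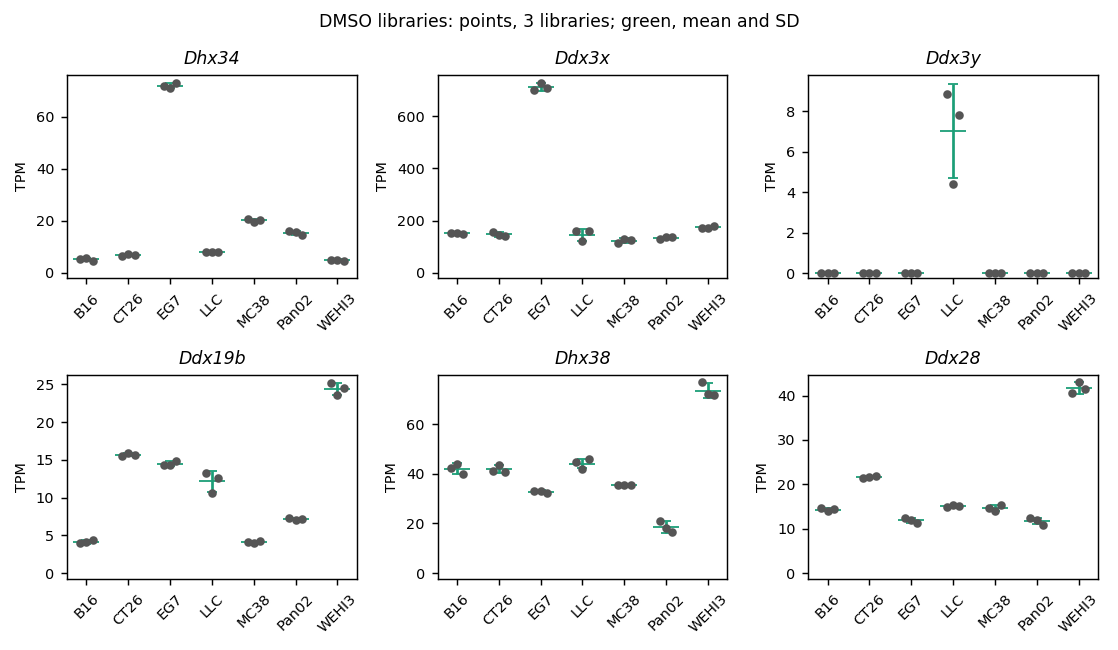
TPM of 6 helicase genes in the DMSO libraries of 7 lines, with points for the 3 libraries and green marks for mean and SD. Dhx34 and Ddx3x stand clear in EG7, Ddx3y is above 0 in LLC alone, and Ddx19b, Dhx38 and Ddx28 are highest in WEHI3.

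Ddx5, a coregulator of transcription and of microRNA processing, was the most abundant helicase of all, with 500 TPM on average, and lay between 389 ± 6.02 TPM in WEHI3 and 567 ± 6.50 TPM in EG7. Its partner Ddx17 averaged 114 TPM and Dhx9, which unwinds duplexes in many nuclear complexes, 120 TPM. Ddx20 (Gemin3 of the SMN complex) was the lowest of these 4 genes, with 28.2 TPM. None of them was called in any line in DMSO. Of the 50-base words of the Ddx5 transcript, 22.7% also occur in other genes, most of them in Gm12183, which averaged 0.969 TPM.

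Of the mitochondrial helicases, Ddx28, which takes part in assembly of the mitochondrial ribosome, held 40.5, 43.1 and 41.4 TPM in WEHI3 and between 10.9 and 21.8 TPM elsewhere. WEHI3 did not overlap the others (1.45 ± 0.034, limma, adjusted p = 3.67e-17). The single exon of Ddx28 lies opposite Dus2, whose line means in DMSO reached 39.7 TPM, and the share of reads from either strand was not tested. Dhx30 averaged 48.3 TPM and was called in no line. The remaining members, Ddx11, Dhx32, Dhx40, Dhx57 and Ddx59, were called in no line either, and Dhx32 kept between 15.4 and 19.8 TPM.

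With RECTAS the helicases moved in both directions and by small amounts. On average over the 7 lines, 17 of 43 members (39.5%) differed from DMSO at an adjusted p under 0.05, against 25.8% of all 8775 genes tested (limma, all 42 libraries, Benjamini-Hochberg). Of these, 7 were higher (16.3% of members, against 9.86% of all genes) and 10 were lower (23.3%, against 15.9%). The median difference of the 43 was 0.0041 on the log2 scale and that of all genes -0.0028, and the median size was 0.038 and 0.037. With median-ratio scaling 9 members were higher and 9 lower, and with quantile normalization 8 and 9, while all genes went from 865 higher and 1396 lower to 1129 and 1122, and to 1227 and 1225. In bulk RNA, fewer cells with a transcript and less of it per cell cannot be told apart.

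Ddx59 showed the largest difference. It is a little-studied DEAD box protein linked in humans to a developmental syndrome of cilia. Its libraries held 10.8, 10.6 and 11.3 TPM with DMSO and 9.46, 8.54 and 8.07 TPM with RECTAS in B16, and 9.84, 10.5 and 10.6 against 8.31, 7.35 and 7.73 TPM in CT26. In EG7 they held 7.93, 7.17 and 6.33 against 5.65, 5.35 and 5.72 TPM, and in LLC 9.10, 8.86 and 10.1 against 7.27, 8.01 and 8.29 TPM. The RECTAS libraries lay below the DMSO libraries without overlap in each of these lines. The shares of all genes below without overlap were 26.5% (B16), 12.5% (CT26), 11.1% (EG7), 9.27% (LLC), 11.4% (MC38), 13.4% (Pan02) and 15.1% (WEHI3).

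In MC38 Ddx59 stood at 8.61, 8.56 and 8.18 TPM with DMSO and 7.46, 6.99 and 6.10 TPM with RECTAS. In WEHI3 the values were 4.81, 5.05 and 4.70 against 4.37, 4.38 and 3.97 TPM, and in Pan02 8.03, 6.68 and 7.73 against 6.75, 6.32 and 5.66 TPM. Pan02 was the single line in which the groups overlapped. The mean over lines went from 8.36 to 6.75 TPM, a fall of 0.26 ± 0.028 (SE), lower in 7 of 7 lines (n = 3 libraries in each group, limma, adjusted p = 5.83e-09). The differences by line ran from -0.36 in CT26 to -0.16 in WEHI3, and a test of their equality did not pass (limma F-test, adjusted p = 0.742). Ddx59 overlaps 9230116N13Rik on the other strand, which averaged 0.652 TPM.

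**Figure D3:**
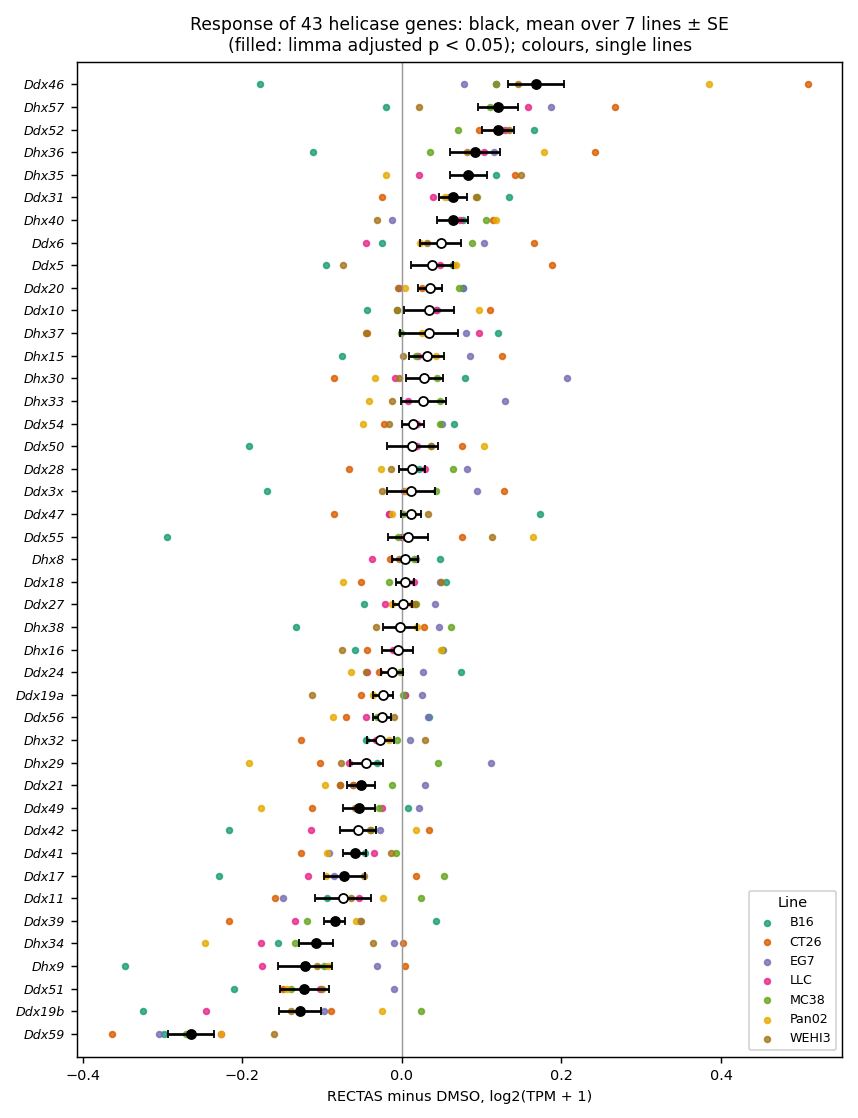
RECTAS minus DMSO on log2(TPM + 1) for 43 helicase genes, sorted by the mean over 7 lines (black, with SE; filled where the limma adjusted p was under 0.05) with the 7 lines as coloured points. Ddx59 lies lowest at -0.26 and Ddx46 highest at 0.17, where the lines also spread most widely.

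Among the 8 spliceosomal helicases, 2 rose (25%, against 9.86% of all genes) and 1 fell (12.5%, against 15.9%) on average. The counts by role were not tested. Ddx46 rose by 0.17 ± 0.035, from 52.3 to 58.7 TPM, and was higher in 6 of 7 lines (limma, adjusted p = 0.000328). Dhx35, found in catalytic spliceosomes, rose by 0.08 ± 0.023, from 14.4 to 15.4 TPM. Ddx41, a spliceosomal helicase also known as a sensor of DNA, was lower in 7 of 7 lines, by -0.06 ± 0.014 (adjusted p = 0.00203 with limma), a call that ended with median-ratio scaling (adjusted p = 0.0518 with limma). Dhx8, Dhx15, Dhx16, Dhx38 and Ddx42 did not pass, with differences between -0.06 for Ddx42 and 0.03 for Dhx15.

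Among the 16 helicases of ribosome biogenesis, 2 rose (12.5%, against 9.86% of all genes) and 3 fell (18.75%, against 15.9%). Ddx52, related to yeast Rok1 and needed for small-subunit rRNA, was the only called member higher in all 7 lines (375 of the 8775 genes, 4.27%, were). It rose by 0.12 ± 0.020, from 35.9 to 39.0 TPM (limma, adjusted p = 2.00e-05), and its groups did not overlap in 4 of 7 lines. In single lines 3.92% (LLC) to 15% (CT26) of all genes lay above without overlap. In B16 Ddx52 stood at 34.5, 33.4 and 36.3 TPM with DMSO and at 41.2, 37.5 and 38.6 TPM with RECTAS.

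Ddx51, which acts in the maturation of large-subunit rRNA in mice, fell by 0.12 ± 0.031, from 30.6 to 28.3 TPM, lower in 7 of 7 lines (limma, adjusted p = 0.00266). With Ddx59 and Ddx41, it was 1 of 3 members called and lower in all lines, against 8.58% of all genes. Ddx31 rose by 0.06 ± 0.018 (adjusted p = 0.00636 with limma). Ddx21 and Ddx49 fell by 0.05 each (limma, adjusted p = 0.0328 and 0.0455), and those 2 calls ended under several alternatives. Ddx49 overlaps Homer3 on the other strand, which averaged 23.3 TPM in DMSO. The other 11 helicases of this group did not pass.

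Among the 8 tested helicases of export, translation and decay, 1 rose (12.5%, against 9.86% of all genes) and 3 fell (37.5%, against 15.9%). Ddx39 fell by 0.08 ± 0.013, from 231 to 218 TPM, with 6 of 7 lines lower (limma, adjusted p = 5.73e-06). Dhx34 fell by 0.11 ± 0.021 (adjusted p = 0.000173 with limma), with the largest differences in Pan02 (-0.25) and LLC (-0.18), and in EG7, where it was most abundant, it held 71.7, 71.3 and 70.7 TPM with RECTAS, overlapping DMSO. Ddx19b fell by 0.13 ± 0.026, from 11.7 to 10.7 TPM (limma, adjusted p = 0.000327), without overlap in 5 of 7 lines. In single lines 9.27% (LLC) to 26.5% (B16) of all genes lay below without overlap.

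Ddx19a, the near copy of Ddx19b, did not pass, at -0.02 (adjusted p = 0.187 with limma). Dhx36, which opens G-quadruplexes, rose by 0.09 ± 0.032 (adjusted p = 0.0296 with limma), and lost the call without the line CT26 (adjusted p = 0.158 with limma). Ddx3x, Ddx6, a repressor of translation and activator of decapping, and Dhx29, which helps ribosomes scan, did not pass. Ddx3x stood at 0.01 ± 0.030.

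Of the 4 helicases of transcription, RNA processing and the SMN complex, 2 fell (50%, against 15.9% of all genes). Dhx9 fell by 0.12 ± 0.034, from 120 to 111 TPM (limma, adjusted p = 0.00684). Its difference was -0.35 in B16 and between -0.18 and 0.003 in the others, and without B16 the average did not pass (adjusted p = 0.0812 with limma). Ddx17 fell by 0.07 ± 0.026 (adjusted p = 0.0406 with limma), with -0.23 in B16. This call was lost in 30 of 57 alternatives, 24 of them fits that left out 1 library. Without B16, EG7, LLC, Pan02 or WEHI3 the adjusted p of Ddx17 was 0.264, 0.0919, 0.0559, 0.0739 and 0.0625 with limma. Ddx17 overlaps Kdelr3 on the other strand, which averaged 36.0 TPM in DMSO, with line means of up to 123 TPM. The share of reads from either strand was not tested.

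Among the members without a group of their own, Dhx57, a helicase of little-known role, rose by 0.12 ± 0.025, from 7.04 to 7.74 TPM (limma, adjusted p = 0.000309). It is uncertain, because Morn2, on the other strand of its locus, rose by 0.22 (limma, adjusted p = 0.000276) and the strand setting is not given in the sources used here. Dhx40 rose by 0.06 ± 0.019 (adjusted p = 0.0126 with limma). Dhx32 and the cohesion helicase Ddx11 did not pass, and neither did the mitochondrial helicases Ddx28 and Dhx30. Dhx32 and Dhx30 overlap Bccip and Smarcc1 on the other strand, which averaged 108 and 58.8 TPM in DMSO. Ddx28 stood at 0.01 while its opposite neighbour Dus2 fell by 0.37 (limma, adjusted p = 1.36e-15). The 26 members that did not pass lay between -0.07 (Ddx11) and 0.05 (Ddx6).

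In single lines few helicases passed, with 6 libraries a fit. In CT26 3 of 43 members were called, against 1.99% of all genes, in Pan02 1, against 1.68%, and in the other 5 lines none. In those lines 4.1% (B16), 3.28% (EG7), 0.194% (LLC), 1.29% (MC38) and 2.08% (WEHI3) of all genes passed. At an unadjusted p under 0.05 the limma counts of members were 11 in B16 (25.6%, against 28.9% of all genes), 12 in EG7 (27.9%, against 19.4%), 3 in LLC (6.82%, against 7.53%), 4 in MC38 (9.3%, against 15.9%) and 7 in WEHI3 (16.3%, against 16.4%).

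Ddx46 rose in CT26 and in Pan02. Its CT26 libraries held 45.1, 44.6 and 41.2 TPM with DMSO and 69.9, 57.1 and 61.0 TPM with RECTAS, a difference of 0.51 ± 0.075 (limma, adjusted p = 0.0279). Its Pan02 libraries held 44.9, 43.5 and 42.4 TPM and 60.8, 55.9 and 55.2 TPM, a difference of 0.39 ± 0.049 (limma, adjusted p = 0.0153). The groups were apart in both lines, as they also were in MC38 and WEHI3. RECTAS lay above without overlap for 15% (CT26), 10.4% (Pan02), 11% (MC38) and 7.59% (WEHI3) of all genes.

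In B16 the Ddx46 values pointed the other way in 2 of 3 RECTAS libraries. It held 57.6, 57.0 and 57.3 TPM with DMSO and 59.5, 43.8 and 49.5 TPM with RECTAS, so that RECTAS replicate 1 lay above the DMSO libraries and the other 2 below (-0.18 ± 0.099, limma, adjusted p = 0.269). In LLC it held 60.9, 44.1 and 62.8 TPM with DMSO and 56.1, 56.8 and 67.9 TPM with RECTAS, where DMSO replicate 2 was the lowest. Equality of the 7 responses was rejected for Ddx46 (limma F-test, adjusted p = 0.0215). By that test 4 of 43 members (9.30%) responded differently between lines, against 3.07% of all genes, and 8 members (18.6%) had an unadjusted p under 0.05, against 21% of all genes. The count of 4 became 0 without B16 RECTAS replicate 2 (1.91% of all genes passed) or without CT26 DMSO replicate 3 (2.18%). It became 17 with the main axis of replicate variation as a covariate, when 27.2% of all genes passed.

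Ddx39 was another of these. In CT26 its libraries held 221, 217 and 230 TPM with DMSO and 190, 193 and 189 TPM with RECTAS, a fall of 0.22 ± 0.031 without overlap (limma, adjusted p = 0.0254). Of all genes in CT26, 12.5% lay below without overlap. In B16 the libraries held 284, 275 and 279 TPM of Ddx39 with DMSO and 280, 296 and 287 TPM with RECTAS, which overlapped (0.04). The difference lay between -0.13 and -0.05 in the other 5 lines (limma F-test over the lines, adjusted p = 0.0260). Ddx39 overlaps Adgre5 on the other strand, which averaged 7.01 TPM.

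Ddx47, related to yeast Rrp3, and Ddx55 were the other two, both of ribosome biogenesis. Ddx47 held 116, 119 and 121 TPM with DMSO and 129, 140 and 133 TPM with RECTAS in B16, higher without overlap (0.17). Of all genes in B16, 8.37% lay above without overlap. In CT26 Ddx47 held 74.7, 75.3 and 78.1 against 72.1, 71.7 and 71.0 TPM, lower without overlap (-0.09), as were 12.5% of all genes. In the other lines the difference of Ddx47 lay between -0.02 and 0.03 (limma F-test, adjusted p = 0.0294).

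Ddx55 held 8.47, 8.12 and 8.09 TPM with DMSO in B16 and 6.94, 6.42 and 6.22 TPM with RECTAS, lower without overlap (-0.29). Of all genes in B16, 26.5% lay below without overlap. In Pan02 Ddx55 held 8.99, 9.64 and 8.99 against 10.8, 9.30 and 11.2 TPM, which overlapped (0.16). In WEHI3 its RECTAS libraries all lay above those with DMSO (0.11), as did those of 7.59% of all genes. The test of equal responses gave Ddx55 an adjusted p of 0.0457 (limma F-test). With the main settings neither gene passed on average over lines or in any single line. With all 6 libraries of B16, Ddx47 passed there with a filter of 5 TPM, median-ratio scaling or the main axis of replicate variation as a covariate. Ddx55 passed there without the trend or with that covariate.

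**Figure D4:**
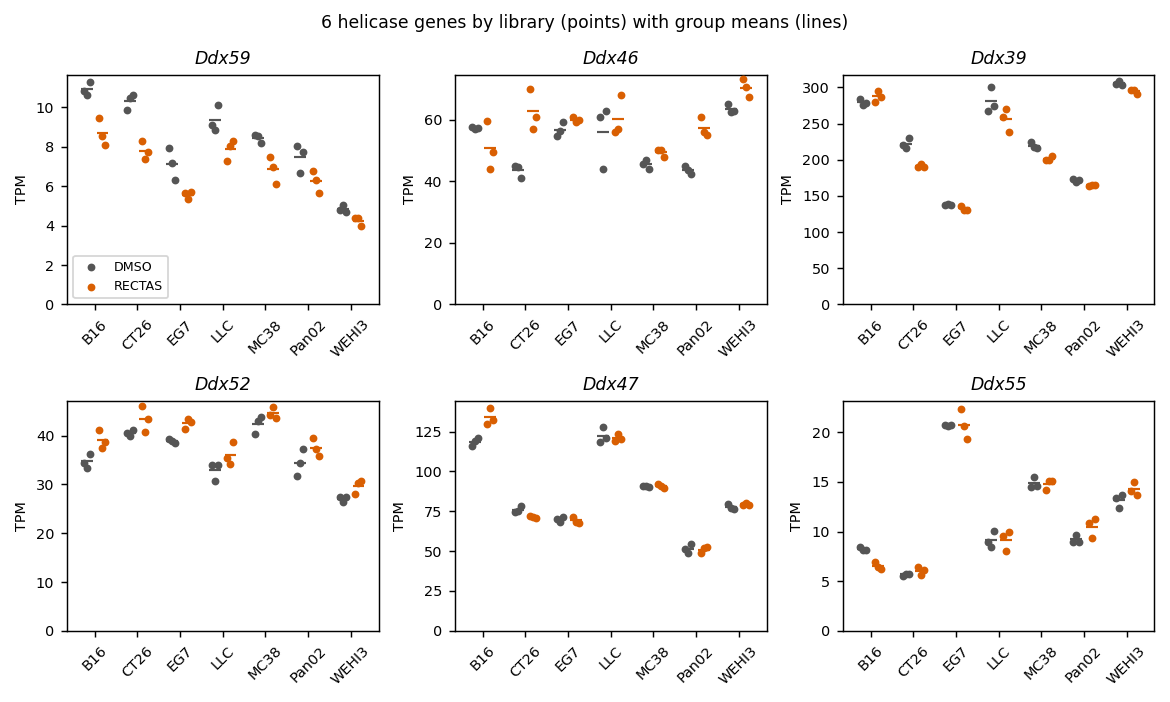
TPM of 6 helicase genes by line, with points for single libraries, grey for DMSO and orange for RECTAS, and short lines for group means. Ddx59 is lower with RECTAS in all 7 lines, Ddx46 is higher in CT26 and Pan02 and spread in B16, and Ddx47 and Ddx55 differ in opposite directions in B16.

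The count in B16 depended on the settings and on the libraries kept. With all 6 libraries it went from 0 to 2 with a filter of 5 TPM (6.19% of all genes) or median-ratio scaling (4.27%). It was 1 with quantile normalization (3.51%) or without the trend (2.63%), and 7 with the main axis of replicate variation as a covariate (10.3%). Without RECTAS replicate 1 of B16, 9 of the 43 members were called there, while all genes went from 496 calls (4.1%) to 1455 (12%). These 9 were Dhx9 (-0.43 ± 0.068), Ddx17 (-0.27), Ddx42 (-0.28), Ddx50 (-0.27), Ddx59 (-0.36), Ddx46 (-0.29), Ddx47 (0.20), Ddx55 (-0.33) and Ddx51 (-0.30), with limma adjusted p between 0.0171 and 0.0374. With all libraries and the main settings the same 9 had an adjusted p between 0.0510 and 0.269 in limma. Of the 50-base words of the Ddx50 transcript, 17.3% also occur in Gm8228, which averaged 0.0819 TPM in DMSO.

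The CT26 calls did not withstand most omissions. All genes there went from 237 calls (1.99%) to 250 (2.09%) without RECTAS replicate 2. Leaving out any 1 of the other libraries took them to between 27 (0.226%) and 66 (0.553%). In CT26 Ddx59 fell by 0.36 ± 0.067 (limma, adjusted p = 0.0474), and this call was lost when any 1 of the 6 CT26 libraries was left out. Without RECTAS replicate 2 the calls of Ddx39 and Ddx46 remained, without RECTAS replicate 1 that of Ddx46, and without any of the other 4 libraries no member was called in CT26. In Pan02 Ddx46 lost its call without DMSO replicate 2, DMSO replicate 3 or RECTAS replicate 1 (limma, highest adjusted p = 0.0726). All genes in Pan02 went from 195 calls (1.68%) to between 46 (0.397%) and 69 (0.595%) when any 1 library was left out. In EG7 1 member was called without RECTAS replicate 2, against 2.13% of all genes.

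The median differences of members and of all genes in a line lay between -0.064 and 0.041. In B16 they were -0.044 for the 43 members and -0.064 for all genes, in CT26 -0.015 and 0.024, and in EG7 0.041 and 0.016. In the remaining lines neither went past 0.024 in size. The median of all genes in B16 was larger in size than the average difference called for Ddx41 (-0.059). It was 0.014 with median-ratio scaling.

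Genes that work with the helicases were counted beside them. Of 20 G-patch proteins, which switch on DEAH helicases, 4 fell on average (20%, against 15.9% of all genes) and the others did not pass. Those that fell were Sugp1, a partner of Dhx15 at the branch site (-0.08), Rbm10 (-0.07), Pinx1, a nucleolar protein (-0.11), and Gpkow, a partner of Dhx16 (-0.07). Of 15 tested RNA helicases without a Ddx or Dhx name, 4 fell (26.7%). These were Mtrex, the helicase of the nuclear exosome (-0.33 ± 0.028, from 53.3 to 45.1 TPM, limma, adjusted p = 2.21e-11), Mov10 (-0.09), Ighmbp2 (-0.09) and Snrnp200, the Brr2 helicase of the spliceosome (-0.06). Of 5 tested interferon-stimulated genes, Bst2 fell, by 0.06. The median differences of these lists were -0.019, -0.022 and -0.056, against -0.0028 for all genes.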

How the data were processed

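Each of the 42 files gave TPM for 55401 genes, as deposited. GRCm38, HISAT2 2.2.0 and RSEM 1.3.0 are named, without their roles, in the submitters' processing notes, and libraries were made with a stranded TruSeq kit per the labels' protocols. How strand was set, which annotation was used and what was filtered is not given in the sources used here.

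Values were taken as log2(TPM + 1), on which a difference understates the fold of low genes, and fitted with limma 3.58.1 in R 4.3.3 (moderated variances, intensity trend, two-sided). Each line was fitted alone over genes with a mean of 1 TPM there. A fit of 14 group means, over genes at 1 TPM in every line, gave the equally weighted average over lines and, with 6 degrees of freedom, an F-test that the lines responded alike. DMSO levels were fitted over genes at 1 TPM in at least 1 line. Adjusted p-values are Benjamini-Hochberg over all genes tested. The fits were checked on simulated data. The simulated noise was independent between genes, so this check does not cover variation that the genes of a library share. Depth is unknown from TPM, so no counting interval is given.

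The alternatives were a pseudocount of 0.1, a filter of 5 TPM or none, median-ratio scaling, quantile normalization, no trend, the replicate number as a block, the main axis of replicate variation as a covariate, and leaving out each line or library. Named genes were the members called on average, in a line or between lines, the 8 most abundant and 10 most variable in DMSO, the extremes of each role group and the 4 other pathway genes of smallest p in a list. The members and lists were chosen with earlier results of these data known. Positions and sequences are from GENCODE M21, where 55141 gene IDs and all 48 members matched, read with Biopython 1.88.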

Additional observations from a re-analysis of the deposited data

Results flagged for a closer look

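The response to RECTAS differed between the 7 lines for 4 helicase genes, by a limma F-test on all 42 libraries with Benjamini-Hochberg adjustment over 8775 genes. Ddx46 had an adjusted p of 0.0215 in the limma F-test, with log2 differences from -0.18 in B16 to 0.51 in CT26. Ddx39 had an adjusted p of 0.0260 in that test, with -0.22 in CT26 and 0.04 in B16. Ddx47 had an adjusted p of 0.0294 in that test, with 0.17 in B16 and -0.09 in CT26. Ddx55 had an adjusted p of 0.0457 in that test, with -0.29 in B16 and 0.16 in Pan02. The calls of Ddx46, Ddx39, Ddx47 and Ddx55 were lost in 3, 5, 6 and 29 of the 42 fits that left out a single library. Ddx39 also lost its call with median-ratio scaling (limma, adjusted p = 0.0774). Ddx55 also lost its call with median-ratio scaling, quantile normalization and the replicate block (limma, adjusted p = 0.0601, 0.0804 and 0.0574).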

How the results depend on the processing

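The alternatives were followed for members already called above: of 1653 such gene values, 1488 kept the call and 165 lost it. None reversed its direction. That says little, because called values leave little room for a reversal and F-test values have no direction. On average over lines, 10 of the 17 called members kept the call in every alternative in which they were tested (Ddx59, Ddx19b, Dhx34 and Dhx57 were not tested with a filter of 5 TPM), and Ddx17, Ddx21, Ddx49, Dhx36, Ddx41, Dhx40 and Dhx9 lost it in some. The 7 higher and 10 lower members became 6 to 8 and 7 to 12 when single libraries were left out. In those fits 24.5% to 27.2% of all genes were called in either direction. The 4 members with unequal responses became 17 with the main axis of replicate variation as a covariate (27.2% of all genes). That axis was taken from the same residuals and so was bound to lower their spread. With single libraries left out the members were 0 to 6, and 1.81% to 9.98% of all genes passed. The members were 0 without B16 RECTAS replicate 2 (1.91% of all genes) or CT26 DMSO replicate 3 (2.18%). They were 1 without B16 DMSO replicate 2 (1.81%), CT26 RECTAS replicate 1 (2.35%) or CT26 RECTAS replicate 3 (2.1%). They were 2 without B16 DMSO replicate 1 (2.29%) or B16 RECTAS replicate 3 (2.23%). Members called in B16 went from 0 to 2 with a filter of 5 TPM (6.19% of all genes) and 2 with median-ratio scaling (4.27%). They were 1 with quantile normalization (3.51%), 1 without the trend (2.63%) and 7 with the covariate (10.3%). With single libraries left out they were 0 to 9 (0.215% to 12% of all genes). In CT26 they went from 3 to 0 without a filter (0.333%), 0 without the trend (0.662%) and 0 with the replicate block (0.243%). They were 8 there with the covariate (11.8%) and 0 to 2 with single libraries left out (0.226% to 2.09%). In Pan02 the 1 call became 0 without a filter (0.209% of all genes) and 0 to 1 with single libraries left out (0.397% to 0.595%). In EG7 the 0 became 0 to 1 with single libraries left out (1.03% to 2.74%). In LLC, MC38 and WEHI3 the count stayed 0 in each alternative (limma, unadjusted counts above). Of all genes, 0.00843% to 1.65%, 0.0334% to 2.16% and 0.441% to 3.17% passed in these lines in turn. In DMSO the 6 lower pairs (1.95%, against 10.8% for all genes) became 14 (4.55%, against 18.9%) with a pseudocount of 0.1. Ddx3y (listed at 0 outside LLC), Ddx55 and Dhx35 then joined the lower members. With single libraries left out the lower pairs were 6 to 7, and the 10 higher pairs 10 to 11. The cause of these shifts was not tested. The deviations of same-numbered libraries of a line correlated at -0.12 to 0.29, above 0.1 for all 3 numbers in no line, so the numbers were not taken as pairs. In LLC all 3 were positive (0.093, 0.29 and 0.15), 5 of 6 libraries correlated best with their own number, and replicate 2 was high (0.50 and 0.28) and replicate 3 low (-0.21 and -0.26) on the main axis in both treatments. In the other lines 0 to 3 of 6 did so. With the replicate block 7 members were higher and 10 lower on average, and 26.8% of all genes were called. Of the 17 calls of members 16 were kept, and Ddx49 was lost (limma, adjusted p = 0.0882). Ddx55 lost its call of unequal responses with the block (limma, adjusted p = 0.0574). The depth behind a TPM value is unknown, so low genes such as Ddx43 and Ddx60 allow no statement about change.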

Other observations

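Of 43 members with 1 TPM in every line in DMSO, 1 was highest in B16 (2.33%, against 20.6% of 8731 genes), and 10 were highest in EG7 (23.3%, against 19.3%). In Pan02 12 members were lowest (27.9%, against 12.7% of genes), and in LLC 1 (2.33%, against 9.91%). The ratio of highest to lowest line was under 2 for 14 members (32.6%, against 24.9% of genes) and at least 4 for 3 members, Dhx34, Ddx3x and Ddx19b (6.98%, against 23.6%). These counts were made after the values were seen, and no test was made of them.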
